A study of Homo sapiens with 21 samples.

Results

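The cytosolic ribosomal protein genes were followed across a knockdown and rescue experiment in A673, a cell line from Ewing sarcoma, a tumour driven by the fusion transcription factor EWS/FLI. Members were taken by symbol: RPL or RPS followed by a number and its usual suffix letters, together with RPLP0, RPLP1, RPLP2 and RPSA. Of 57820 rows of the deposited table, 85 matched, and 82 of these had a linear value of 10 or more in at least 3 libraries and are described among 18040 genes tested. By name, 31 are genes of the small subunit (RPS) and 51 of the large subunit (RPL), with 6 paralogue copies among them (RPL7L1, RPL22L1, RPL26L1, RPL36AL, RPL39L and RPS27L). The name alone does not show that the product of a paralogue is part of the ribosome. The members that did not pass include RPL3L, at log2 values of 2.16 to 3.55, and RPL10L, at -4.09 in all libraries but 1.

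Total RNA was sequenced in 21 libraries of 5 groups. Control cells carried RNA interference against luciferase and an empty pMSCV-hygro vector (n = 4). Knockdown cells carried RNA interference against EWS/FLI and the same empty vector (n = 5). The 3 rescue groups carried the same RNA interference and a pMSCV-hygro vector encoding EWS/FLI. Its form was full-length type IV in the wild type group (n = 5), delta 22 in another (n = 4) and mut9 in the last (n = 3). All groups were therefore infected with a selected RNA interference construct and, after 4 days of selection, with a second virus, and no library came from untouched cells. The replicate number is the batch in the labels: control holds batches 1, 2, 3 and 5, delta 22 batches 1 to 4 and mut9 batches 3 to 5. The labels name 1 cell line and do not say whether replicates were separate infections, so p-values measure the spread between libraries, which may be technical.

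Each ribosome holds a single copy of nearly every ribosomal protein beside its ribosomal RNA, and proliferating cells spend a large part of their transcription on making them. Ribosomal protein messenger RNAs usually start with a cytosine followed by a run of pyrimidines, the 5′ terminal oligopyrimidine (TOP) motif, through which mTOR and LARP1 control their translation and stability. Several members also have paralogues with their own expression patterns, and many members are mutated in Diamond-Blackfan anaemia, a failure of red cell production.

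The annotated starts of some members are shown to make the shared TOP motif visible and to set the paralogues beside their main copies. Each line gives 15 bases before and 15 bases from the start annotated by RefSeq in GRCh38.p14, on the strand of the gene, with the initial run of C and T in capitals where it holds a C and at least 4 more pyrimidines. RPS19 has 2 annotated starts, and the first that opens with such a run is shown. The authors' build is hg19, so these positions were not joined to any value of the table. RPSA, RPS19 and RPL31 were among the members with the largest decrease in the knockdown, RPL28 and RPL37A were not called there, and RPS27L and RPL36AL were called higher.
RPSA (chr3:39406705-39406734, plus strand): tttcctgccgcctgtCTTTTCCgtgctacc
RPS19 (chr19:41860240-41860269, plus strand): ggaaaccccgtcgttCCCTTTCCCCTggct
RPL31 (chr2:101002274-101002303, plus strand): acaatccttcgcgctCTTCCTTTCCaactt
RPL28 (chr19:55385917-55385946, plus strand): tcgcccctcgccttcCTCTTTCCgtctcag
RPL37A (chr2:216498829-216498858, plus strand): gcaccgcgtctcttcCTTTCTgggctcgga
RPS27 (chr1:153990747-153990776, plus strand): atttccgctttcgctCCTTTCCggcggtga
RPS27L (chr15:63157463-63157492, minus strand): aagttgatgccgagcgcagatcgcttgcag
RPL36A (chrX:101390996-101391025, plus strand): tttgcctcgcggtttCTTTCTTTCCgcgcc
RPL36AL (chr14:49620612-49620641, minus strand): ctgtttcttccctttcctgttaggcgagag
RPL22 (chr1:6199581-6199610, minus strand): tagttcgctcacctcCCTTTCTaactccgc
RPL22L1 (chr3:170870181-170870210, minus strand): cgcggccgtagcttcCTCTCTgctctcgcg

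FLI1, whose transcript includes the fusion, was 3.64-fold lower in knockdown than in control libraries (exact permutation test over libraries, 2-sided p = 0.0159, the smallest that 126 regroupings can give). The Ewing sarcoma markers NKX2-2, NR0B1, PRKCB, STEAP1, PAPPA, LIPI and GLI1 reached 10 in all 21 libraries, while CD99 is listed at 0 in each. Of the markers of other cell types, EPCAM, CDH1, CD3E, LYZ and TEK stayed under 10 in every library, as did HBB. KRT19, PTPRC, VWF and CDH5 reached 10 in 9 to 18 libraries, and KRT8, KRT18 and KDR in all 21. KDR, an endothelial receptor, had a mean log2 value of 5.55 in control and 9.55 in knockdown libraries, and its part in the results was not tested. FLI1 values were 11.56 to 11.69 in control, 9.59 to 9.99 in knockdown, 10.35 to 10.69 in wild type, 10.99 to 11.51 in delta 22 and 10.10 to 10.39 in mut9 libraries. The authors' values keep no read totals, so depth per library is unknown. Each difference is given in log2 units between the means of the groups, ± its standard error, and was tested by limma over all genes with Benjamini-Hochberg adjustment and is called at an adjusted p under 0.05.

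Ribosomal protein genes were lower in the knockdown as a body. In the comparison of knockdown with control, 76 of the 82 members fell, 2 rose and 4 were not called, with a median log2 difference of -0.59 (1.5-fold) and an interquartile range of -0.69 to -0.45. Of all genes tested, 34.0% were called lower and 35.5% higher, and their median difference was -0.007. For 73 members every knockdown library lay below every control library, which held for 28.7% of all genes. The mean log2 value of the 82 members ran from 13.95 to 14.12 in the 4 control libraries, highest in batch 1. It was 13.39, 13.37, 13.44, 13.54 and 13.58 in the knockdown libraries of batches 1 to 5, all below the lowest control library. As a share of the summed linear values of the genes tested, members took 4.23% ± 0.247 (SD, n = 4) in control and 2.57% in knockdown libraries, with a range of 2.35% to 2.8% (n = 5). These are relative values from bulk RNA: fewer cells of a kind and less of these RNAs per cell cannot be told apart, and total RNA per cell was not measured. Rescaling the libraries left between 78 and 79 members lower, and the median of all genes then shifted by -0.133 to -0.243.

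**Figure D1:**
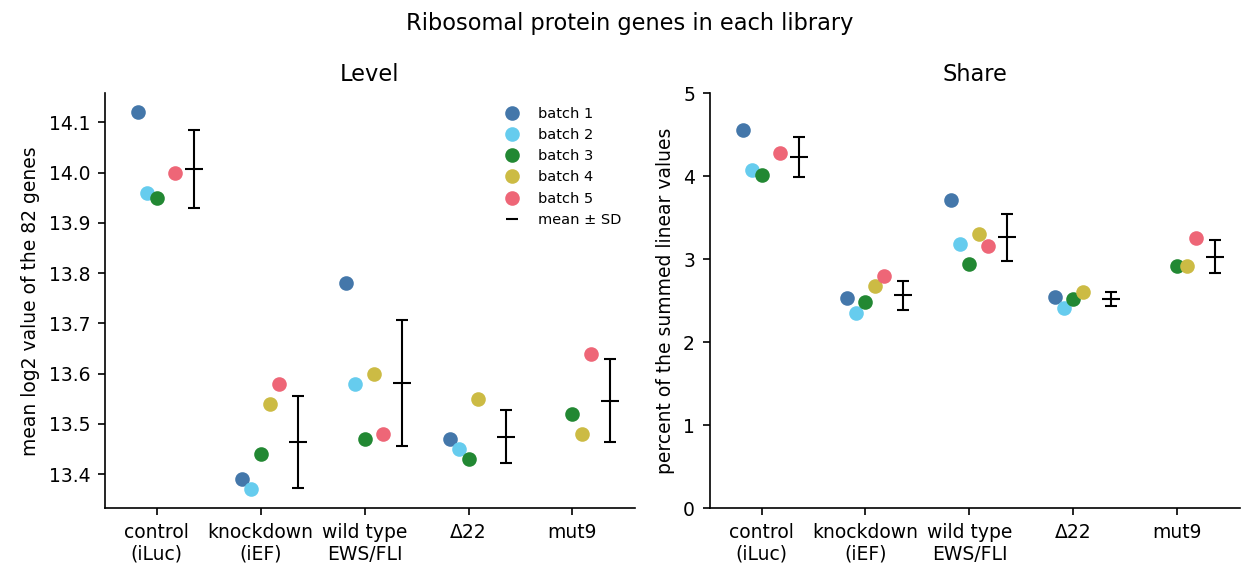
Mean log2 value of the 82 ribosomal protein genes (left, axis not from 0) and their percent of the summed linear values of all genes tested (right) in each library, coloured by batch, with the group mean ± SD. The 4 control libraries lie above every other library, and the wild type library of batch 1 (13.78) is the highest of the rescue libraries.

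The small subunit fell without exception: all 30 members other than the paralogue RPS27L were called lower in the knockdown, with a median of -0.65. RPSA, the small subunit protein also known as the laminin receptor precursor, had the largest decrease. Its log2 values were 15.77, 15.66, 15.73 and 15.79 in the control libraries and 14.40, 14.61, 14.84, 14.87 and 14.75 in the knockdown libraries, so the groups did not overlap. The difference was -1.04 ± 0.08, a 2.06-fold decrease (limma adjusted p = 1.72e-09). RPSA was the only member lowered by at least 2-fold. RPS19, the gene most often mutated in Diamond-Blackfan anaemia, gave 14.91, 14.76, 14.75 and 14.80 in control and 13.88, 13.89, 13.98, 14.04 and 14.14 in knockdown libraries. Every knockdown library was again below every control library, at -0.82 ± 0.07. RPS2 and RPS20 followed at -0.80 each. RPS6, the substrate of S6 kinase, fell by 0.53 on the log2 scale, RPS3, which lines the messenger RNA entry channel, by 0.54, RPS4X, the X-linked copy of the S4 gene, by 0.50 and RPS27A, which is made as a fusion with ubiquitin, by 0.47.

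In the large subunit, 43 of the 46 members other than paralogues were called lower, with a median of -0.58. RPL5 and RPL11 carry the 5S ribosomal RNA into the large subunit and bind MDM2 when ribosome assembly is disturbed. RPL5 stood at 15.86, 15.50, 15.47 and 15.48 in control and at 14.73, 14.67, 14.79, 14.90 and 14.98 in knockdown libraries, and RPL11 at 15.13, 14.75, 14.81 and 14.90 against 14.20, 14.07, 14.21, 14.32 and 14.41. Neither overlapped between the groups, and they fell by 0.76 and 0.66 on the log2 scale. In the P stalk, which recruits elongation factors to the ribosome, RPLP0 fell by 0.59, RPLP1 by 0.41 and RPLP2 by 0.35 on the log2 scale, although RPLP2 libraries overlapped (13.57 in control batch 1 against 13.62 in knockdown batch 5). RPL3, a protein close to the peptidyl transferase centre, fell by 0.37. RPL21, RPL23A and RPL31, each at -0.79, had the largest decreases in the large subunit. All 21 tested ribosomal protein genes on the list for Diamond-Blackfan anaemia were called lower, from -0.82 to -0.45.

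Outside the paralogues, 3 members were not called between knockdown and control, all in the large subunit. RPL28 had a difference of -0.10 ± 0.08 (adjusted p = 0.262), RPL30 of -0.08 ± 0.08 (adjusted p = 0.413) and RPL37A of -0.16 ± 0.08 (adjusted p = 0.0931). RPL28 ran from 11.81 to 11.98 in control and from 11.70 to 11.95 in knockdown libraries, so the ranges overlapped. RPL37A ran from 13.82 to 14.08 in control and from 13.69 to 13.78 in knockdown libraries, and these ranges did not overlap although the difference was not called. Across the 82 members the signed difference had a Spearman correlation of -0.31 with the control level, so members with higher levels tended to have the more negative differences. Over the 76 members without paralogues it was -0.22. Both are descriptions over genes that share libraries.

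**Figure D2:**
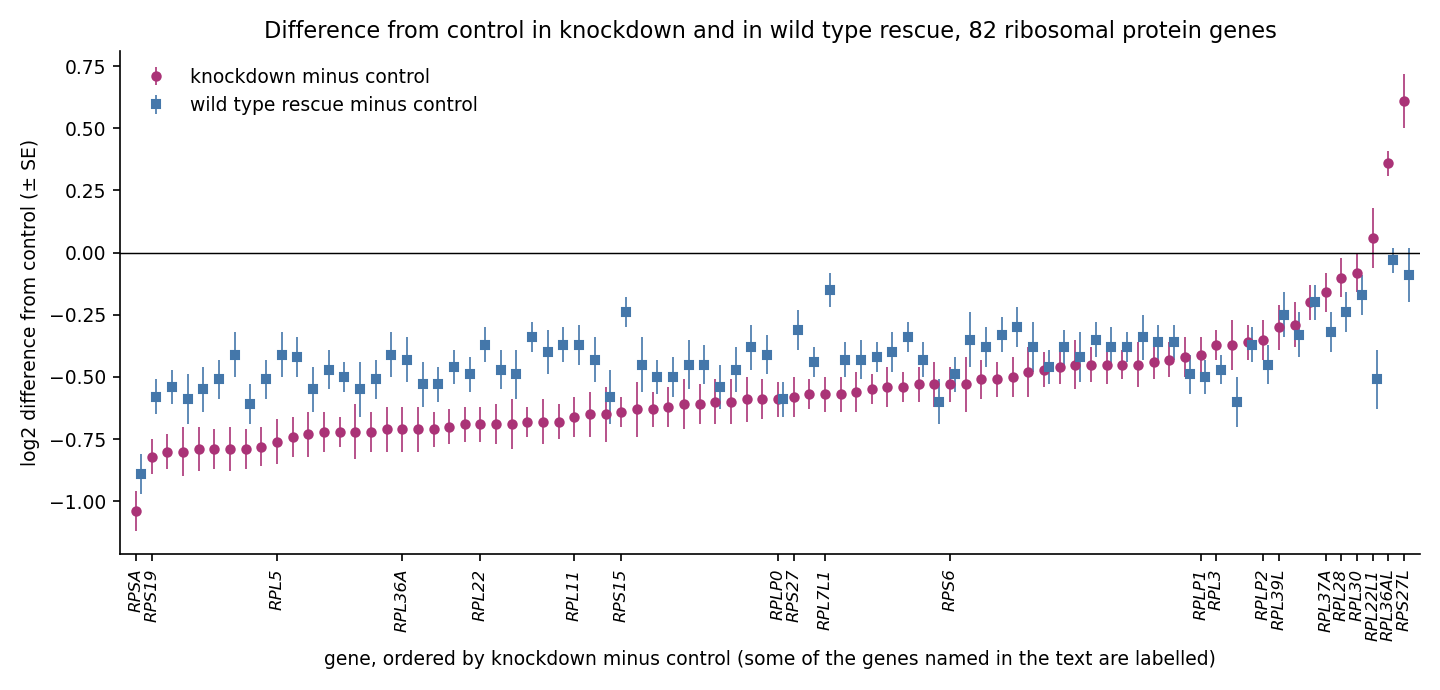
Log2 difference from control (± SE) of each of the 82 members in the knockdown (circles) and in the wild type rescue (squares), ordered by the knockdown value, with some genes labelled. Knockdown values run from -1.04 (RPSA) to 0.61 (RPS27L), and no wild type value lies above 0.

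Of the 6 paralogue copies 2 rose in the knockdown, 3 fell and 1 was not called. RPS27L is known as a gene induced by p53, a factor that A673 lacks in working form. It had log2 values of 11.33, 11.31, 11.34 and 11.22 in control and 12.19, 12.02, 11.86, 11.97 and 11.49 in knockdown libraries, all of them higher (0.61 ± 0.11, adjusted p = 4.76e-05). Its partner RPS27 moved the other way, from 14.51, 14.35, 14.29 and 14.54 to 13.90, 13.67, 13.76, 13.94 and 13.93 (-0.58 ± 0.08). RPL36AL, a second copy of RPL36A, was also higher in every knockdown library (12.71, 12.78, 12.82, 12.76 and 12.64 against 12.52, 12.38, 12.36 and 12.28; 0.36 ± 0.05), while RPL36A fell by 0.71. RPL36AL read below RPL36A by 0.31 ± 0.12 (SD, n = 4) on average in control libraries. It read above RPL36A by 0.76 ± 0.17 (SD, n = 5) in knockdown libraries. No scaling to gene length was applied here, so these values do not show which copy was the more abundant. Per kilobase of annotated exon, the log2 control level was 10.7 for RPL36A and 12.8 for RPL36AL. RPL22L1 was not called, at 0.06 ± 0.12 (adjusted p = 0.666), while RPL22 fell by 0.69. RPL7L1 (-0.57), RPL26L1 (-0.63) and RPL39L, a copy best known from testis (-0.30), fell with their partners RPL7 (-0.72), RPL26 (-0.48) and RPL39 (-0.71).

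To compare the copies directly, the log2 difference between paralogue and main copy was formed within each library, where scaling cancels, and tested by exact permutation over libraries. This test was chosen after the values were seen. It shifted between knockdown and control by 1.19 for RPS27L, 1.07 for RPL36AL and 0.75 for RPL22L1, each with an exact 2-sided p = 0.0159, the smallest possible, and 0.0595 after adjustment over 30 such tests. In the wild type rescue it moved back by -0.97, -0.67 and -0.90 against the knockdown (exact p = 0.00794, adjusted 0.0595). No adjusted value passed 0.05 in these 30 tests. For RPL26L1 the shift between knockdown and control was -0.15 (exact p = 0.159). In delta 22 libraries the RPS27L shift against the knockdown was 0.10 (exact p = 0.698) and that of RPL36AL was 0.25 (exact p = 0.0317, adjusted 0.0714). The shifts of RPL22L1 (-0.45) and RPL39L (-0.35) were in the other direction, each with an exact p = 0.0317 and 0.0714 after adjustment.

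**Figure D3:**
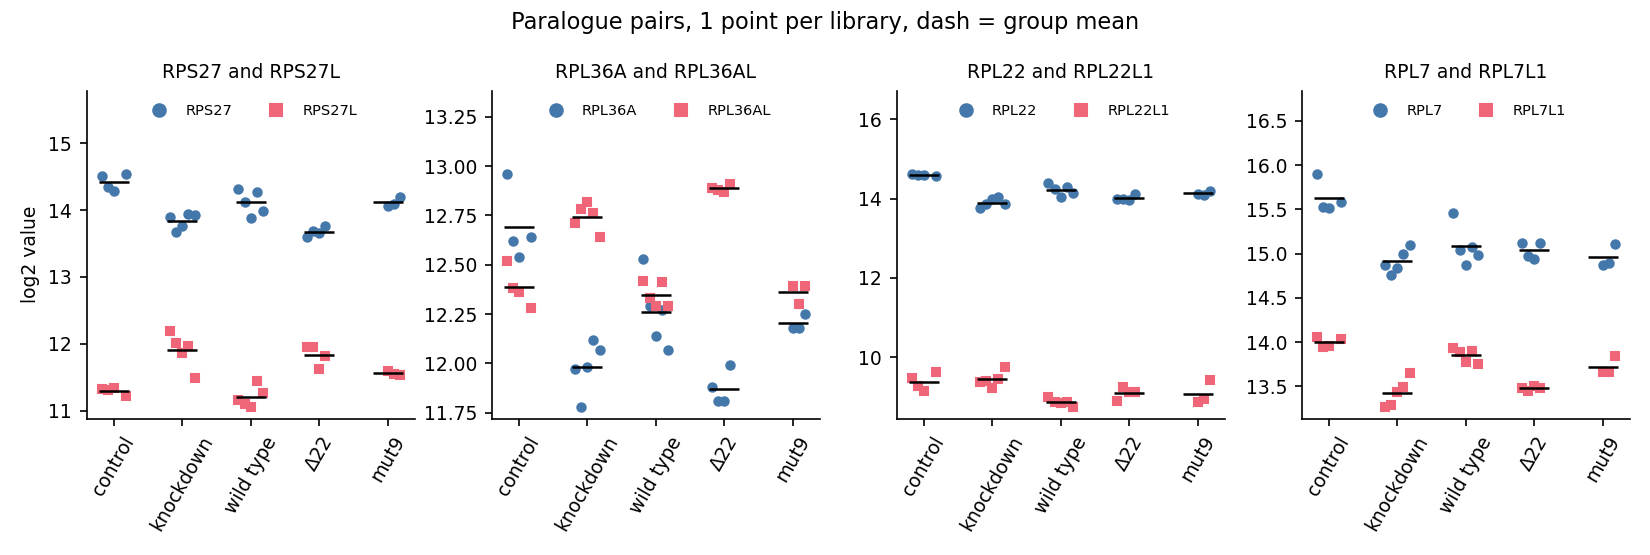
Log2 values of 4 main copies (circles) and their paralogues (squares) in each library, with the group mean as a dash and a separate axis range in each panel. The means of RPS27L and RPL36AL are highest in knockdown and delta 22 and lower in control, wild type and mut9, while the means of RPS27 and RPL36A are highest in control.

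With wild type EWS/FLI part of the members rose again. Between wild type and knockdown libraries 31 members rose, 4 fell and 47 were not called, with a median of 0.15. Of all genes 29.6% were called higher and 32.3% lower. The share of members called higher was thus near that of all genes, while the share called lower was well under it. The largest rises included those of RPL7L1 (0.42 ± 0.06, adjusted p = 1.1e-05), RPS15 of the small subunit head (0.40 ± 0.06), RPS26 of the messenger RNA exit channel (0.37 ± 0.08) and RPL5 (0.35 ± 0.09). RPS15 gave 14.15, 14.01, 13.91, 13.94 and 13.89 in wild type against 13.60, 13.45, 13.49, 13.69 and 13.66 in knockdown libraries, without overlap and with wild type higher in each of the 5 batches. RPL11 rose by 0.29 ± 0.08, which brings both 5S partners into the group that rose, and 11 of the 21 Diamond-Blackfan genes rose. The stalk genes were not called: RPLP0 differed by 0.01 ± 0.07, RPLP1 by -0.09 ± 0.06 and RPLP2 by -0.10 ± 0.08. RPSA, the member with the largest decrease in the knockdown, had a difference of 0.15 ± 0.08 (adjusted p = 0.101). The members that fell were RPS27L (-0.69 ± 0.10), RPL22L1 (-0.58 ± 0.12), RPL36AL (-0.39 ± 0.05) and RPL12, which sits at the base of the stalk (-0.23 ± 0.09).

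The size of this rescue varied between batches and with the scaling. Between the wild type and knockdown library of the same batch, the members' median difference was 0.43, 0.25, 0.07, 0.08 and -0.09 in batches 1 to 5. In a fit of batches 3 to 5 alone, 3 members were called higher and 6 lower, with a median of 0.02. Of all genes, 21.3% were called higher and 25.5% lower in that fit. Without wild type replicate 1 the count of higher members was 21, and without knockdown replicate 5 it was 42, beside 28.2% and 29.1% of all genes. When libraries were brought to a common median, common quantiles or a common linear total, 61, 65 and 69 members were called higher, while the median of all genes shifted by 0.163, 0.120 and 0.201. The share of all genes called higher was then 41.8%, 39.3% and 45.4%. The fall in the knockdown held in each of its 4 batches, with medians of -0.79, -0.65, -0.55 and -0.44 in batches 1, 2, 3 and 5.

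**Figure D4:**
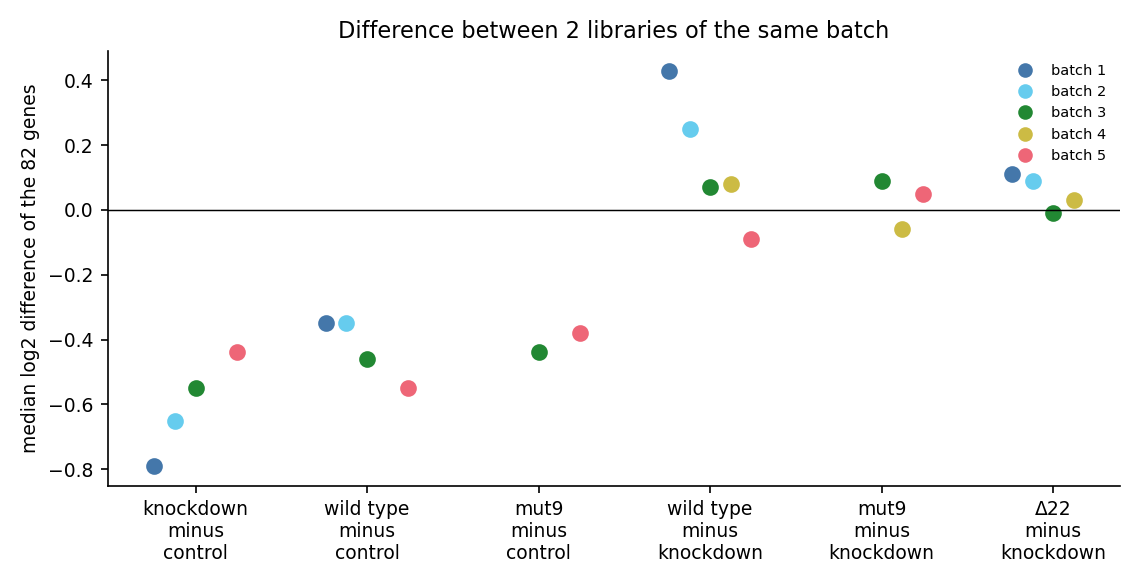
Median log2 difference of the 82 members between 2 libraries of the same batch, coloured by batch, for 6 comparisons. All values of knockdown, wild type and mut9 against control lie below 0, and wild type against knockdown runs from 0.43 in batch 1 to -0.09 in batch 5.

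Against control, the wild type rescue remained low in nearly all members. Between wild type and control libraries 78 members were called lower and 0 higher (0 at an unadjusted limma p under 0.05 as well), with a median of -0.43, against 18.3% of all genes lower and 21.3% higher. For 61 members every wild type library lay below every control library, which held for 14.7% of all genes. RPSA remained lowest at -0.89 ± 0.08, with wild type values of 15.01, 14.79, 14.74, 14.91 and 14.79 under a lowest control value of 15.66. RPL21 (-0.61), RPS21 (-0.60), RPL12 (-0.60) and RPS2 (-0.59) followed. RPLP0 was at -0.59 ± 0.07, the value it also had in the knockdown against control. The 4 members not called were RPL7L1 (-0.15 ± 0.07), RPL30 (-0.17 ± 0.08), RPL36AL (-0.03 ± 0.05) and RPS27L (-0.09 ± 0.11). The comparisons with control share the same 4 control libraries, and control batch 1 was high for several members (RPL5, RPL7 and RPS4X).

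No member was told apart between delta 22 and knockdown libraries. Between delta 22 and knockdown 0 members were called in limma in either direction (3 higher and 3 lower at an unadjusted p under 0.05), with a median of 0.02; 2.24% of all genes were called higher and 2.26% lower. With a replicate block 1 member was called lower. Standard errors of single members ran from 0.05 to 0.12. RPSA gave 14.69, 14.69, 14.67 and 14.77, a difference of 0.01 ± 0.08, and RPS19 gave 13.83, 13.84, 13.89 and 13.98, a difference of -0.10 ± 0.07. Nearest to a call was RPL39L at -0.32 ± 0.09 (adjusted p = 0.053), with 8.72, 8.63, 8.45 and 8.60 below all knockdown libraries (8.74 to 9.11). Against control, 75 members were lower and 2 higher, with a median of -0.57, beside 33.7% and 35.1% of all genes; the 2 were RPS27L (0.54 ± 0.11) and RPL36AL (0.51 ± 0.05).

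With mut9 a smaller part of the members was called. Between mut9 and knockdown libraries 15 members rose, 6 fell and 61 were not called, with a median of 0.09, beside 23.0% of all genes higher and 25.5% lower. The share of members called higher was therefore not above that of all genes, and the share called lower was under it. RPS28, of the messenger RNA exit channel, rose by 0.45 ± 0.08, RPL39, which lines the exit tunnel, by 0.43 ± 0.10, RPSA by 0.43 ± 0.09, RPL31 by 0.34 ± 0.10 and RPS16 by 0.33 ± 0.08. RPSA values were 14.96, 15.12 and 15.28 in mut9 libraries, above every knockdown library and below every control library. The 6 that fell were RPL36AL (-0.38), RPL22L1 (-0.37), RPS27L (-0.35), RPL28 (-0.30), RPL12 (-0.30) and RPL37A (-0.29). Without mut9 replicate 5 the rise was called for 6 members, beside 20.5% of all genes. With median centring, quantile scaling and total scaling it was called for 16, 49 and 47 members. The median of all genes was then 0.042, 0.059 and 0.137. The members' median lay above that of all genes by 0.1, 0.18 and 0.1, against 0.1 without rescaling. Within batches 3, 4 and 5 the members' median difference was 0.09, -0.06 and 0.05. Against control, 77 members were lower and 0 higher (1 at an unadjusted p under 0.05), with a median of -0.49, beside 18.9% and 23.5% of all genes. For 75 members all mut9 libraries lay below all control libraries, against 22.8% of all genes.

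The rescues were also compared with each other. Between mut9 and wild type 2 members were called higher, RPS27L (0.35 ± 0.12, adjusted p = 0.0437) and RPSA (0.27 ± 0.09, adjusted p = 0.0454), and RPS15 was lower (-0.30 ± 0.07, adjusted p = 0.00446), beside 11.2% and 7.61% of all genes. With a replicate block 1 was higher and 2 lower, and RPSA was the call lost, at 0.24. Neither RPS27L nor RPSA was called with median centring, quantile scaling, total scaling or no filter on low values, and leaving out any 1 library of these groups left 0 or 1 member higher. Mut9 shares only batches 3 to 5 with wild type. Between delta 22 and wild type 24 members were lower and 4 higher, with a median of -0.13, beside 29.5% and 31.7% of all genes, so the share of members called lower was near that of all genes. RPS27 (-0.44 ± 0.08), RPL31 (-0.42 ± 0.09), RPL29 (-0.39 ± 0.08), RPL36A (-0.38 ± 0.09) and RPL7L1 (-0.37 ± 0.07) were lowest, and RPS27L (0.63 ± 0.11), RPL36AL (0.54 ± 0.05), RPL37A (0.26 ± 0.08) and RPL28 (0.24 ± 0.08) were higher. In batches 3 to 5 alone 8 members were called lower, and the members' median within batches 1 to 4 was -0.35, -0.17, -0.05 and -0.07. When libraries were brought to a common median, common quantiles or a common total, 51, 67 and 72 members were called lower. Of all genes, 38.5%, 37.2% and 47.4% were then called lower, and their median difference was -0.132, -0.099 and -0.247. Under each of these scalings only 2 members were called higher: RPL37A and RPL28 were no longer called, at 0.13 and 0.11, 0.06 and 0.10, and 0.02 and -0.01, so that total scaling turned the direction of RPL28.

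Genes that build ribosomes also fell in the knockdown, and most rose again in the rescue. Of 85 ribosome biogenesis factors tested, 72 fell and 4 rose in the knockdown, with a median of -0.48; these included HEATR1 (-1.01 ± 0.07), a factor of ribosomal RNA transcription and processing, FBL (-0.96 ± 0.08), the ribosomal RNA methyltransferase fibrillarin, and TBL3 (-0.77 ± 0.06). In the wild type rescue 63 of the 85 rose and 3 fell, and 26 were called below control (16 with total scaling, 42 with median centring). For these and the following lists the shares over all genes tested were 34.0% lower and 35.5% higher in the knockdown, 29.6% higher and 32.3% lower in wild type against knockdown, and 18.3% lower in wild type against control. Of 15 genes of the RNA polymerase I machinery, which transcribes ribosomal RNA, 12 fell in the knockdown (POLR1B -1.17 ± 0.13, UBTF -0.69 ± 0.09, POLR1F -0.51), 11 rose with wild type, and 1 was below control. Ribosomal protein genes had 31 of 82 called higher in the rescue and 78 of 82 below control; the difference between the lists was not tested, and both share the knockdown and control libraries. Translation elongation factors, whose messenger RNAs often carry the TOP motif too, were listed together with TPT1 and EEF1E1. Of these 8 genes 6 were lower in the knockdown and 7 below control in the rescue. TPT1 (-0.25 in the knockdown) and EEF1E1 (-0.92) were among both. Initiation factors had 21 of 34 lower and 4 higher in the knockdown. With wild type 13 of the 34 rose and 7 fell, and 16 were below control, with a median of -0.16. EIF4B had the lowest value of this list in both comparisons with control, at -0.69 ± 0.07 in the knockdown and -0.60 ± 0.07 in the rescue. FAU, which also encodes a ribosomal protein but has another name, fell in the knockdown (-0.17 ± 0.06).

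Mitochondrial ribosomal proteins, which form a separate ribosome, fell as well: 68 of 81 were lower and 3 higher in the knockdown, with MRPS15 at -0.95 ± 0.06. With wild type 48 rose and 6 fell, and 53 of the 81 were below control. Nuclear-encoded subunits of oxidative phosphorylation had 64 of 73 lower in the knockdown, with a median of -0.57, led by COX7C at -1.46 ± 0.10. With wild type 45 rose and 6 fell, and 52 of the 73 were below control. Ribosomal protein genes were therefore not the only list with most of its members called lower, in the knockdown or in the rescue against control.

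**Figure D5:**
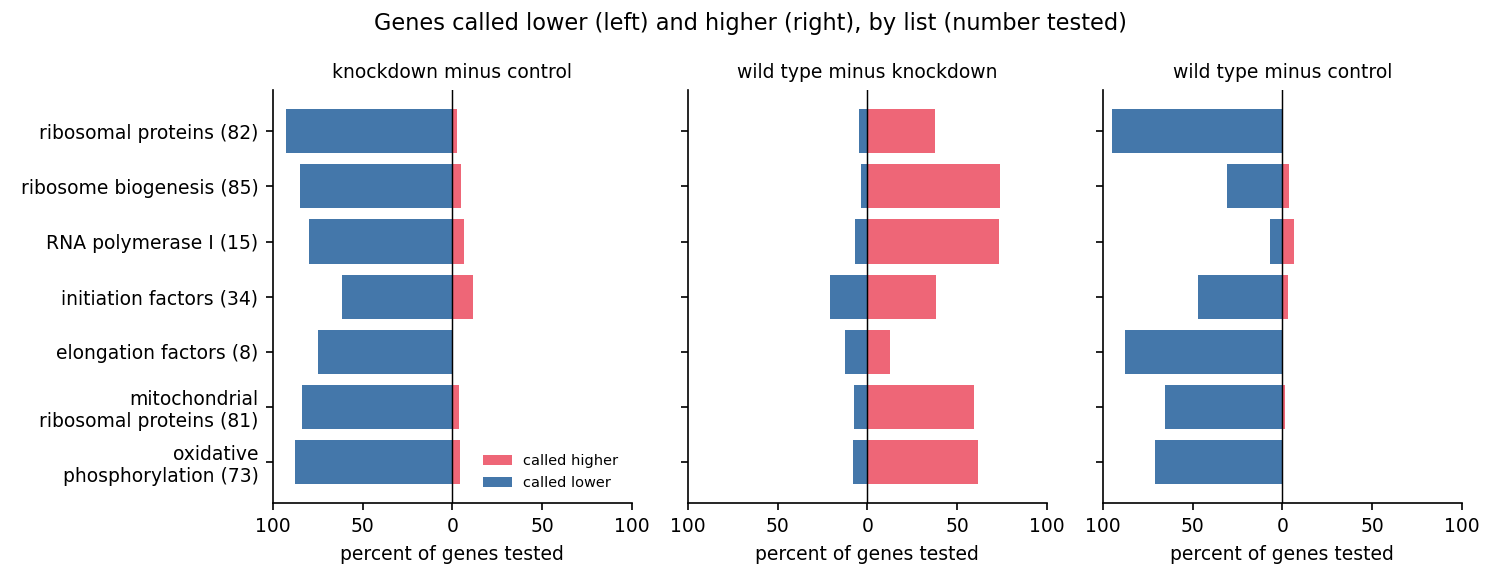
Percent of the tested genes of each list called lower (left of 0) and higher (right of 0) in 3 comparisons, with the number tested after each name. In the knockdown every list shown has more genes called lower than higher. The wild type rescue leaves 78 of 82 ribosomal protein genes and 26 of 85 biogenesis factors below control. It leaves 53 of 81 mitochondrial ribosomal proteins and 52 of 73 oxidative phosphorylation genes below control.

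The annotated starts were then set beside the differences. Of the 82 members 67 have an entry in the RefSeq table (300 bases, 250 before and 50 from the start; all starts of a gene were read), and 15 do not, among them RPL23, RPL23A, RPL30, RPL37, RPL39L, RPL5, RPL7, RPL8, RPS15A, RPS2 and RPS20. A start that opens with C and at least 4 further C or T was found in 47 of the 67 (70.1%), against 7.13% of 12336 tested genes with an entry and 4.07% of all 35116 windows. The knockdown difference had a median of -0.57 in the 47 members with such a start and of -0.57 in the 20 without it. Within 3 bases of the annotated start, 53 of the 67 (79.1%) had the run, against 19% of tested genes and 13% of all windows. The 20 therefore include members with a run a few bases away, and the medians compare exact starts only. In the starts printed above, RPS27L and RPL36AL lack the run at the annotated base, while RPS27 and RPL36A have it. RPL22L1, RPL28 and RPL37A have it as well. The annotated start of RPL36AL lies inside an unbroken stretch of C and T, so its lack of the run depends on the exact position. The hexamer CCGGAA, a core recognised by ETS factors, was present on either strand in 38 of the 67 (56.7%, against 32.0% of tested genes and 17.2% of all windows), with a median knockdown difference of -0.53 with it and -0.62 without it. GGAAGGAA, the repeat unit of microsatellites bound by EWS/FLI written out in tandem, was present in 2 of the 67 (2.99%, against 4.99% of tested genes and 3.67% of all windows), and 0 members held both motifs. These matches are letters in a window and no measure of binding.

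Ribosomal protein genes have many processed pseudogenes, nearly identical in sequence, and reads shared between copies can be assigned to either or dropped, depending on the counting. The table holds 1594 rows with names of ribosomal protein pseudogenes, of which 130 passed the filter. In the knockdown 65 of the 130 were lower and 9 higher, with a median of -0.37, beside 34.0% and 35.5% of all genes tested. The extremes were far outside the range of the members: RPL4P1 at -2.84 ± 0.18, while RPL4 itself was at -0.57, and RPLP0P2 at 4.98 ± 0.43, while RPLP0 was at -0.59. Whether reads of members were lost to these copies was not tested, and the values of single members carry this uncertainty.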

How the data were processed

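RNA of A673 cells was taken with an RNeasy kit and on-column DNase digestion, and 2.5 ug of total RNA entered ScriptSeq library preparation, per the labels. Per the submitters' processing notes, bcl2fastq, STAR 2.5.2b, HTSeq, DESeq2 and hg19 were used; how each was set is not given in the sources used here. The deposited table holds log2 values normalized by the authors, from -4.09 to 20.22, with 17358 of 57820 rows at 0 in every library. The transform behind them is not given in the sources used here. No read totals are kept, so no depth is given. All 21 columns of values were matched to samples and used. The closest pair of libraries correlated at 0.9978 with 0 identical values.

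Ensembl IDs were matched to symbols through the reference name table and GENCODE 29 (52338 matched, 5482 not). The deposited log2 values entered the tests unchanged, without a pseudocount or a count test. Genes reaching log2 of 10 in at least 3 libraries were tested with limma 3.58.1 (trend, R 4.3.3), with 1 mean per group over all 21 libraries (16 residual degrees of freedom, median residual SD 0.207), 2-sided. The fit was also run on simulated data with independent noise and few changed genes. That setting is simpler than these data, so it does not measure the error of the fit here. Python 3.11.15 was used for summaries.

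Members and lists were chosen with earlier results of these data known. Named members are a fixed set and all paralogue pairs, the 5 largest calls in each direction per comparison and members called against the median, and the 3 genes with the smallest adjusted p of each other list. RPL4, RPL21 and RPL23A in the knockdown, RPL30, EIF4B in the rescue, MYC and MYCN were chosen after their values were seen. The batch number pairs the libraries, per the labels: 34 pairs of libraries of different groups with the same number had deviations that correlated at 0.20 on average, others at -0.049, and 24 of the 34 exceeded 0.1. Alternatives were no filter, a mean of at least 100, quantile scaling, median centring, a replicate block, compared groups only, array weights, leaving out each library, and batches 3 to 5. Scaling to a common linear total and the test of paralogue pairs were added after the data were seen. Results of some genes are not reported here.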

Additional observations from a re-analysis of the deposited data

Results flagged for a closer look

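In groups of 4 or 5 libraries, 164 sets of values (41 measures in 4 groups) were checked for a highest or lowest library far from the rest, by the gap to its nearest neighbour relative to the range. Mut9, with 3 libraries, was not checked. In 9 sets a library stood apart, and chance gives about 1 in 20. Control batch 1 was high for RPL5 (15.86), RPL7 (15.90) and RPS4X (16.18). Wild type batch 1 was high for RPL12 (14.44), RPL26 (14.26) and RPS2 (14.57), and wild type batch 3 was low for RPL23A (13.63). Delta 22 batch 4 was high for RPL11 (14.41) and RPSA (14.77), by gaps of 0.10 and 0.08. The library mean of all members met this rule in none of the 4 groups. Without control replicate 1 the members called lower in the knockdown numbered 76, as with it. Without wild type replicate 1 the members called higher in the wild type rescue numbered 21 in place of 31.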

How the results depend on the processing

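The fall in the knockdown and the low level of all 3 rescues against control kept their direction under every alternative run. Leaving out libraries in turn gave 75 to 76 members lower in knockdown against control, 76 to 78 in wild type against control, 73 to 78 in mut9 against control and 75 to 76 in delta 22 against control. For wild type against knockdown it gave 21 to 42 higher and 3 to 7 lower, for mut9 against knockdown 6 to 18 higher and 2 to 6 lower, and for delta 22 against knockdown 0 to 1 lower. For mut9 against wild type it gave 0 to 1 higher and 1 to 3 lower, and for delta 22 against wild type 4 to 6 higher and 19 to 30 lower. In the comparisons of wild type and mut9 with knockdown, the lowest counts of higher members came without wild type replicate 1 and without mut9 replicate 5, and the highest without knockdown replicate 5.

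Median centring, quantile scaling and total scaling gave 61, 65 and 69 members higher in wild type against knockdown, 51, 67 and 72 lower in delta 22 against wild type with 2 higher each time, and 7, 4 and 4 lower with 0 higher in mut9 against wild type. In mut9 against knockdown the 3 scalings gave 16, 49 and 47 higher and 3, 2 and 1 lower. Median centring left 1 member higher in knockdown against control. In batches 3 to 5 alone, 3 members were higher in wild type and 4 in mut9 against knockdown, 8 were lower in delta 22 against wild type, and 1 was higher in mut9 against wild type. With the replicate block, 37 members were higher and 5 lower in wild type against knockdown, 1 was lower in delta 22 against knockdown, and 1 was higher and 2 lower in mut9 against wild type; it moved no other count of members by over 1.5 times. Array weights gave 9 lower in mut9 against wild type, 1 higher in mut9 against control and 1 lower in delta 22 against knockdown. A mean of at least 100 gave 2 lower in mut9 against wild type and 1 lower in delta 22 against knockdown. Total scaling gave 1 lower in delta 22 against knockdown. The compared groups alone gave 1 higher in mut9 against control and in mut9 against wild type, and no filter gave 0 higher in mut9 against wild type. The cause of these changes was not tested.

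Between delta 22 and wild type, quantile scaling turned RPLP0 to -0.26, RPL3 to -0.11, RPS6 to -0.18 and RPS27A to -0.20. Total scaling turned RPL3 to -0.17, RPL28 to -0.01, RPS6 to -0.23, RPS27A to -0.24 and RPLP2 to -0.20. EEF1D turned to 0.16 in wild type against knockdown with quantile scaling. Depth per library is unknown, so the counting error behind a value cannot be given.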

Other observations

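Of 28 genes of the MYC and mTOR network, 11 were higher and 8 lower in knockdown than in control libraries (limma, Benjamini-Hochberg adjusted), shares near the 35.5% and 34.0% of all genes tested, so the count says nothing particular to this list. MYC itself was not called (0.04 ± 0.15, adjusted p = 0.841), while MYCN fell (-2.46 ± 0.33) and was higher with wild type than in the knockdown (3.92 ± 0.31). MXD4, a MAX partner that opposes MYC, rose (2.17 ± 0.14), and MTOR fell (-0.48 ± 0.04). DDIT4, an inhibitor of mTOR signalling, rose in the knockdown (2.86 ± 0.27) and was at 0.21 ± 0.27 in wild type against control (adjusted p = 0.556).

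Of 4 genes tested from the nucleolar stress and p53 list, CDKN1A, a cell cycle inhibitor, rose in the knockdown (2.88 ± 0.21) and stood at 1.49 ± 0.21 above control in the wild type rescue, while MDM2 fell (-0.75 ± 0.09).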
